A study of Mus musculus with 6 samples.

Results

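The interferon-inducible p200 family, also called the HIN-200 or PYHIN family, was followed through 5 genes in mouse ovary: Mndal, Ifi202b, Ifi203, Ifi204 and Aim2. They were taken by symbol from a count table of 51826 genes. The set was chosen by measured values: the counts of Mndal and its neighbour Ifi202b separated the group labelled COH from the groups with ovarian hyperstimulation syndrome (OHSS). Each of the 5 symbols had 1 entry, and all 5 genes passed the filter on low counts, as did 19027 genes in all. The levels against COH are therefore given as a description with no test. The comparison of OHSS with and without nintedanib was not the contrast of the choice and was tested. The values of both these groups were among those used, and earlier results of these data were known.

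Bulk RNA was sequenced from whole ovaries of ICR mice, an outbred stock, in 3 groups of 2 libraries. COH, a name that the labels do not spell out, served as the reference. OHSS is a mouse model of the syndrome, in which hormone stimulation enlarges the ovaries and makes vessels leak, and the last group is OHSS mice given nintedanib, an inhibitor of receptor kinases for VEGF, FGF and PDGF, growth factors of vessels and connective tissue. The labels used here give no age, hormone scheme, drug dose or time, and do not say whether the 2 libraries in each group are from different animals, so p-values here cover the spread between the sequenced samples alone, which could be technical.

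Proteins of the p200 family bind DNA through a HIN domain, and most also carry a pyrin domain that joins them to other proteins. Aim2 senses DNA in the cytosol and assembles an inflammasome with the adaptor Pycard and caspase 1, Ifi204 is a mouse relative of human IFI16, and Ifi202b lacks the pyrin domain and can hold Aim2 back. Their genes form a cluster on chromosome 1, many are induced by interferons, and inbred strains differ in the cluster, with Ifi202b known for large differences between strains. Mndal and Ifi203 encode further nuclear members of the family.

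Total counts ranged from 28498435 to 34716751 per library. Levels are CPM, counts relative to a common size of the scaled libraries, and a floor of 3 read pairs corresponded to 0.169 to 0.210 CPM. Libraries within the OHSS and nintedanib groups stood apart from each other in interferon-stimulated genes. Summed over 31 such genes, the level was 567 and 636 CPM in COH, 3312 and 927 CPM in OHSS replicates 1 and 2, and 2170 and 5912 CPM in nintedanib replicates 1 and 2. Results that rest on nintedanib replicate 2 are given with and without it.

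The gene models place the 14 p200 genes with a row in the table in the order Aim2, Ifi206, Ifi214, Ifi213, Ifi209, Ifi208, Ifi207, Ifi204, Ifi203-ps, Mndal, Ifi211, Ifi203, Ifi202b and Ifi205. The model of Mndal overlaps those of Ifi211 and Ifi203 on the same strand, so reads can be shared between them. Of the 100-base stretches in each gene's transcripts, 6.38% of Mndal, 10.7% of Ifi204 and 2.84% of Ifi203 also occurred in another annotated gene. That gene could lie inside or outside the cluster. Of the 1598 stretches of Ifi202b and the 3452 of Aim2, none occurred in another gene. Ifi211 shared 56.9% of its stretches, and its level is uncertain. The handling of reads that fit several places is not given in the sources used here.

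Upstream sequences from RefSeq (build GRCm38.p6) matched 4 of the 5 genes, the exception being Ifi204. The 250 bases before each start were searched on both strands for GAAA followed by any 2 bases and GAAA, the core of the interferon-stimulated response element, and for TTCNNNGAA, the gamma-activated site. The core lay in windows of Mndal and Ifi203, not in the windows of Ifi202b and Aim2, and in 7 of the 8 other p200 genes with a window, beside 3.46% of all 27025 genes with a window. Some p200 windows are alike in sequence, such as those of Ifi207 and Ifi211, identical at 216 of 247 aligned positions (87.4%). The p200 genes are therefore not independent of each other in this count. Windows with a motif are shown for the 3 members that were highest in OHSS without nintedanib relative to COH. Each is given 5′ to 3′ on the minus strand, with the motif in capitals. They are the windows of the first Mndal start (chr1:173880188-173880437), the second Ifi203 start (chr1:173942493-173942742) and the Ifi202b start (chr1:173982845-173983094).
Mndal: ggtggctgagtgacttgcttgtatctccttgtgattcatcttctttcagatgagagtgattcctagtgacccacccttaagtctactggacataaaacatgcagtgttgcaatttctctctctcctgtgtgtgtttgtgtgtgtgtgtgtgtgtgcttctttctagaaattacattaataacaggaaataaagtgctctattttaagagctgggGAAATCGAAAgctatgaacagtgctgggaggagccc
Ifi203: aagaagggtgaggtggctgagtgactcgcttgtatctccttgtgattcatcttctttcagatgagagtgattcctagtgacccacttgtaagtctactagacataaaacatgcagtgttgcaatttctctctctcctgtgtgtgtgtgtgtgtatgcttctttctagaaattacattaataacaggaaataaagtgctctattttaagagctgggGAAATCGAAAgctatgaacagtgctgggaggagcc
Ifi202b: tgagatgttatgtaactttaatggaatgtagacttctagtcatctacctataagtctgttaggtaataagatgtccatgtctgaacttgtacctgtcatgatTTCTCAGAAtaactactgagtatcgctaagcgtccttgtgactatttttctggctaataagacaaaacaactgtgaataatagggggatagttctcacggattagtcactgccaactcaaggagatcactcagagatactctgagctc

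The core GAAATCGAAA ended 26 bases before the first start of Mndal and 25 bases before the second start of Ifi203. Aligned with each other, these windows were identical at 233 of 249 positions (93.6%). The second annotated start of Mndal had the core on the other strand as TTTCTCTTTC, 44 bases before the start, and the first start of Ifi203 had none. The Ifi202b window held the gamma-activated site TTCTCAGAA, 139 bases before the start, a motif found in 8.13% of all genes with a window. A match is a description of the letters and was not tested as a site.

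Mndal was nearly silent in COH and clearly present in all 4 OHSS libraries. Its counts, in replicate order, were 43 and 36 for the COH libraries, 974 and 700 for OHSS, and 946 and 2539 for OHSS with nintedanib. Scaled, this was 1.21 and 1.26 CPM in COH, 31.3 and 23.1 CPM in OHSS, and 32.8 and 79.1 CPM with nintedanib. Both COH libraries lay far below every other library, and nintedanib replicate 2 lay above the rest. The log2 fold change against COH was 4.46 (SE 0.502) for OHSS and 5.50 (SE 0.522) for OHSS with nintedanib, and the highest library stood 65.5-fold above the lowest. In bulk samples fewer cells of a type and less RNA per cell cannot be told apart.

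Ifi202b had an unlike order, being highest in OHSS without the drug. Its level was 28.9 and 36.7 CPM in COH, 77.7 and 81.9 CPM in OHSS, and 44.5 and 46.0 CPM with nintedanib. The 3 groups did not overlap, and the libraries with nintedanib lay between the other groups. The log2 fold change against COH was 1.28 (SE 0.145) in OHSS and 0.47 (SE 0.143) with nintedanib, the latter being 0.30 without COH replicate 1. Its whole range was 2.83-fold, and the SD within a group was at most 5.50 CPM.

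Ifi203 was low in COH and varied within the other groups. It reached 18.1 and 16.8 CPM in COH, 100.6 and 58.4 CPM in OHSS, and 71.5 and 143.4 CPM with nintedanib. Every OHSS library lay above both COH libraries, and OHSS with and without nintedanib overlapped. The log2 fold change against COH was 2.19 (SE 0.415) in OHSS and 2.62 (SE 0.422) with nintedanib.

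Ifi204 was lower in both OHSS libraries than in COH and spread widely with nintedanib. It stood at 92.9 and 94.3 CPM in COH, 79.1 and 36.8 CPM in OHSS, and 24.3 and 164.8 CPM with nintedanib. The lowest and the highest of the 6 libraries were both from the nintedanib group, 6.78-fold apart, while the COH libraries were close to each other and above both OHSS libraries. The log2 fold change against COH was -0.69 (SE 0.860) in OHSS and 0.02 (SE 0.855) with nintedanib, and the latter was -1.94 without nintedanib replicate 2 and 0.81 without nintedanib replicate 1. Leaving out OHSS replicate 1 gave -1.33 for OHSS, and leaving out replicate 2 gave -0.25.

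Aim2 had the narrowest range of the 5 genes, 2.57-fold between the lowest and highest library. It measured 3.49 and 4.34 CPM in COH, 4.82 and 3.53 CPM in OHSS, and 3.40 and 8.73 CPM with nintedanib, from 98 to 280 counts. The OHSS and COH libraries overlapped, and nintedanib replicate 2 lay above all others. The log2 fold change against COH was 0.09 (SE 0.486) in OHSS, which turned to -0.06 without COH replicate 1 and to -0.13 without OHSS replicate 1, and 0.63 (SE 0.485) with nintedanib, which turned to -0.20 without nintedanib replicate 2 and was 1.15 without nintedanib replicate 1.

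**Figure D1:**
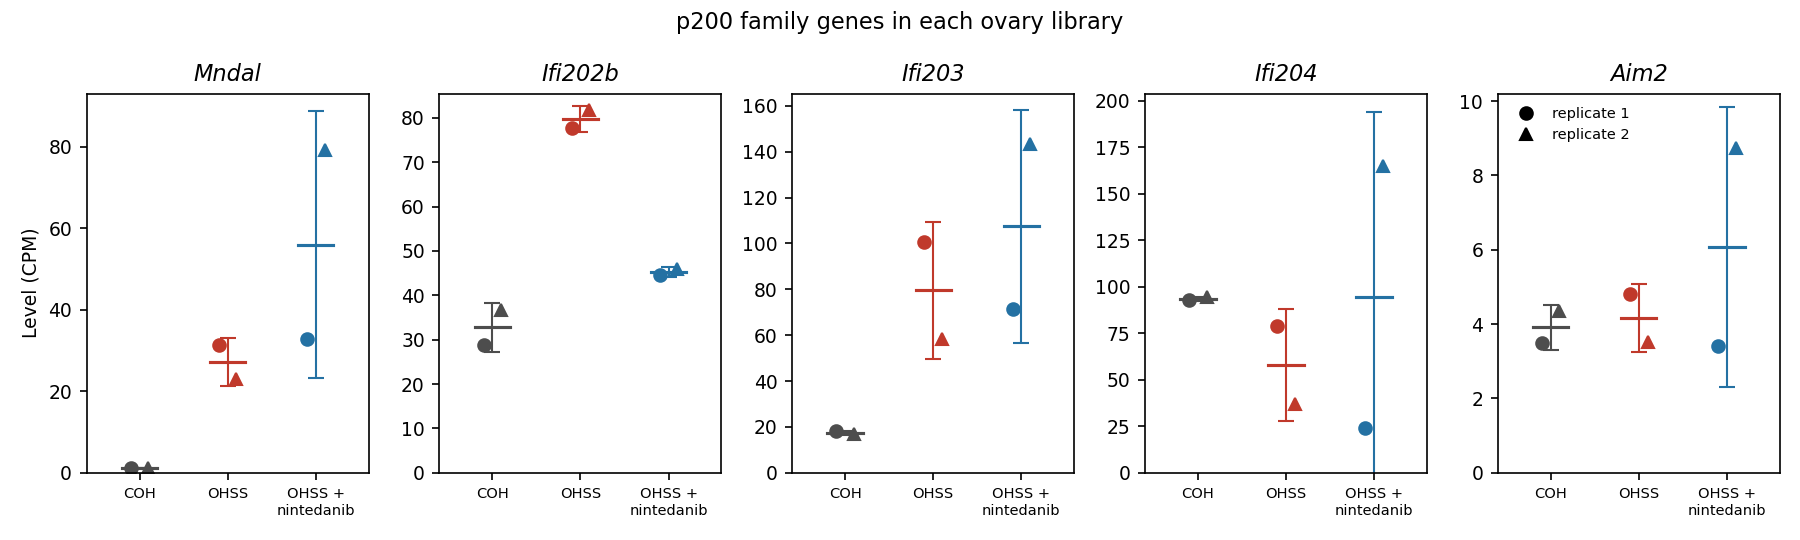
Level of the 5 p200 genes in CPM (y axis, from 0 and on its own scale in each panel) in the 3 groups (x axis). Circles are replicate 1, triangles replicate 2, and bars the mean with the SD of 2 libraries, the lower end of the Ifi204 bar with nintedanib being cut at 0. Mndal lies at 1.21 and 1.26 CPM in COH and at 23.1 CPM or more elsewhere, and Ifi202b is highest in OHSS.

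In OHSS against COH, 3 of the 5 genes (Mndal, Ifi202b and Ifi203) had both OHSS libraries above both COH libraries, and 1 (Ifi204) had both below. Across all genes tested such separation was found for 21.2% in the higher and 22.9% in the lower direction, 44.1% in all, and since the genes were chosen in this contrast nothing is read from the count. In OHSS with nintedanib against COH the same 3 genes separated higher and none lower, beside 22.3% higher and 22.7% lower of all genes, or 45.0% in either direction, and nothing is read from this count either.

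Levels were compared between genes per kilobase of exon. In COH, Ifi204 came first (26.1 and 26.5 CPM per kb), followed by Ifi202b (17.0 and 21.6), Ifi203 (2.69 and 2.51), Aim2 (0.995 and 1.24) and Mndal (0.333 and 0.348), with no overlap between neighbours in this order. In OHSS, Ifi202b led at 45.8 and 48.2 CPM per kb. Ifi204 (22.2 and 10.3) and Ifi203 (15.0 and 8.71) overlapped there, and Mndal (8.63 and 6.37) stood above Aim2 (1.38 and 1.01). With nintedanib, Ifi202b (26.2 and 27.1 CPM per kb), Ifi204 (6.83 and 46.3), Ifi203 (10.7 and 21.4) and Mndal (9.04 and 21.8) could not be placed in an order beyond their spread except that Ifi202b lay above Ifi203 and Mndal. Aim2 was lowest again (0.971 and 2.49).

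The makeup of the cluster differed between COH and the other libraries. Summed over the 14 genes, the cluster gave 51.4 and 56.7 CPM per kb in COH, 108.7 and 84.99 CPM per kb in OHSS, and 61.1 and 167.7 CPM per kb with nintedanib. Ifi204 made up 50.7 and 46.7% of the sum in the COH libraries, 20.4 and 12.2% in those of OHSS, and 11.2 and 27.6% with nintedanib, so COH lay above all the others. Mndal took 0.648 and 0.613% in the COH libraries, 7.94 and 7.49% in those of OHSS, and 14.8 and 13.0% with nintedanib, so the 2 nintedanib libraries had close shares at unlike levels (9.04 and 21.8 CPM per kb). The share of Ifi202b was 33.1 and 38.1% in the COH libraries, 42.1 and 56.8% in those of OHSS, and 42.9 and 16.2% with nintedanib, where the lower share was that of replicate 2.

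**Figure D2:**
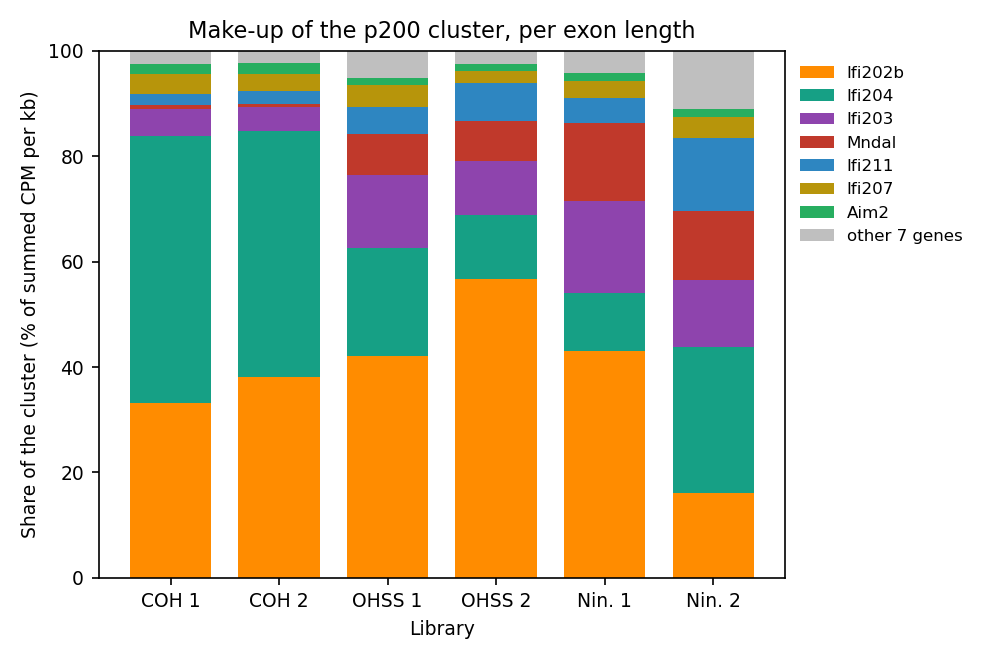
Share of 7 p200 genes, with the other 7 in grey, in the summed level of the 14-gene cluster, in percent of CPM per kilobase (y axis, from 0), for each of the 6 libraries (x axis). Ifi204 holds 50.7 and 46.7% in COH and 27.6% or less in the other libraries, and Mndal holds 0.648 and 0.613% in COH and 7.49% or more in the others.

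Ratios between genes of the cluster were taken per kilobase within each library. The ratio of Mndal to Ifi203 was 0.124 and 0.138 in the COH libraries, 0.575 and 0.731 in those of OHSS, and 0.848 and 1.02 with nintedanib. Every OHSS library thus lay above both COH libraries in this ratio. The ratio of Ifi204 to Ifi203 was 9.68 and 10.5 in the COH libraries, 1.48 and 1.19 in those of OHSS, and 0.640 and 2.16 with nintedanib, with both COH libraries above the rest. A ratio within a library shows unequal change only.

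OHSS with nintedanib against OHSS asked whether the genes differed with the drug. With edgeR and adjustment over all 19027 genes 0 of the 5 were called at an adjusted p below 0.05, beside 0.00526% of all genes, and 1 (Ifi202b) passed at an unadjusted p under 0.05, beside 7.42% of all genes. The latter count was 4 of 5 without nintedanib replicate 1, and 2 of 5 with DESeq2, with scaling by library size only or with no filter. Both nintedanib libraries lay above both OHSS libraries for Mndal and below them for Ifi202b, and such separation was found for 19.2% of all genes in the higher and 16.9% in the lower direction, 36.2% in all. Ifi203, Ifi204 and Aim2 overlapped between the groups.

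The mean of Ifi202b was lower with nintedanib, at -0.82 on the log2 scale (SE 0.143, edgeR adjusted p = 0.520). DESeq2 gave -0.83 with an adjusted p of 0.00124 and called 1.17% of all genes, whereas limma voom gave -0.82 with an adjusted p of 0.474. The size ranged from -0.87 to -0.75 over all the settings tried. The mean of Mndal was higher, at 1.04 on the log2 scale (SE 0.422, edgeR adjusted p = 0.675), a value that was 0.27 without nintedanib replicate 2 and 1.54 without nintedanib replicate 1.

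For the other 3 members the mean was higher with nintedanib, and this rested on nintedanib replicate 2. The log2 fold change was 0.43 for Ifi203 (SE 0.396, edgeR adjusted p = 0.820), 0.71 for Ifi204 (SE 0.860, edgeR adjusted p = 0.870) and 0.54 for Aim2 (SE 0.484, edgeR adjusted p = 0.817). Without that library the values were -0.15, -1.25 and -0.30, and without OHSS replicate 2 they were 0.10, 0.26 and 0.33.

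**Figure D3:**
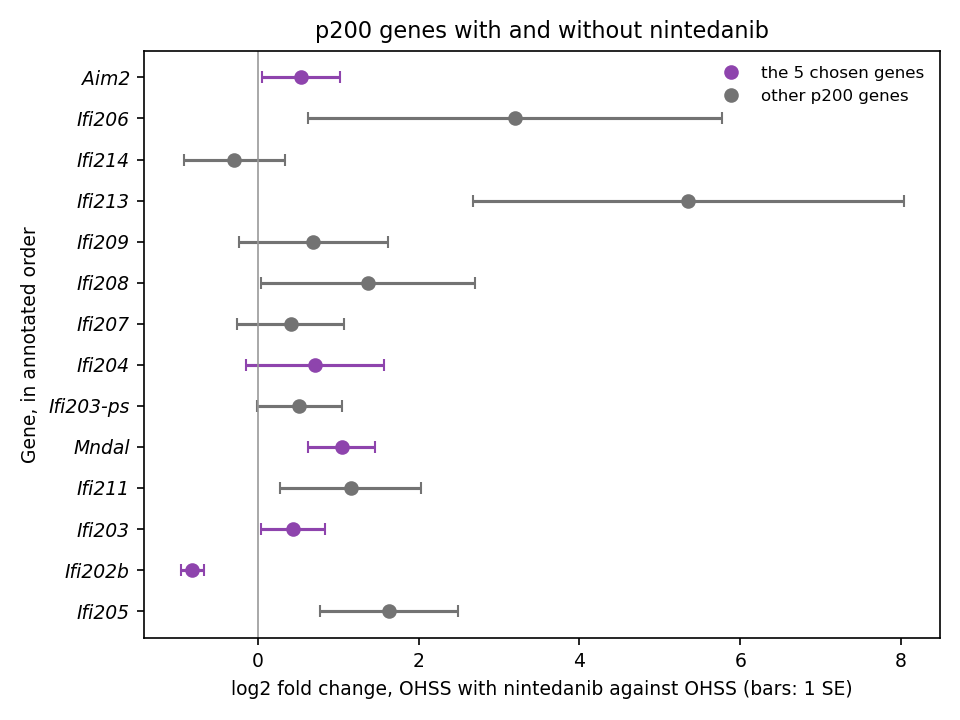
Log2 fold change of OHSS with nintedanib against OHSS (x axis) for each p200 gene (y axis), with bars of 1 SE from the fit of all 6 libraries. Ifi202b lies at -0.82 and Mndal at 1.04, and edgeR called 0 of the genes after adjustment over all genes, while DESeq2 called Ifi202b.

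The table had a row for 9 other p200 genes. Of these, Ifi206, Ifi208, Ifi213 and Ifi214 passed the filter on low counts only through libraries outside COH, so no count of directions or median against COH is given over the 9. In OHSS against COH the edgeR test and limma voom called 0 of 9 (edgeR called 0.0105% of all genes). The single DESeq2 call, beside 1.89% of all genes, was Ifi206, which had counts in only 1 OHSS library. At an unadjusted edgeR p under 0.05 were 2 of 9 (Ifi214 and Ifi203-ps), beside 8.82% of all genes. Since Ifi206 and Ifi214 passed the filter only through libraries outside COH, nothing is read from these counts. Ifi211, next to Mndal, had 1.94 and 2.49 CPM in COH, 9.97 and 10.96 CPM in OHSS, and 5.17 and 41.3 CPM with nintedanib. The OHSS libraries of Ifi211 did not overlap those of COH.

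Ifi206 and Ifi213 were seen almost only in 2 of the 6 libraries. Ifi206 had 0 counts in 4 libraries, 41 counts in OHSS replicate 1 and 390 counts in nintedanib replicate 2. Ifi213 had 0 counts in both COH libraries, 20 and 0 counts in OHSS, and 2 and 857 counts with nintedanib. A count of 0 allows up to 6 counts in a library, for counting error only. Ifi208 was likewise uneven, at 0.169 and 0.315 CPM in COH, 3.22 and 0.759 CPM in OHSS, and 0.486 and 9.76 CPM with nintedanib.

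Ifi205, Ifi207, Ifi209 and Ifi203-ps, the last a pseudogene of Ifi203, lay between 0.665 and 6.66 CPM in COH and were also highest in nintedanib replicate 2, at 12.4, 23.3, 7.48 and 9.54 CPM. Ifi214 had 2 to 22 counts per library and was highest in OHSS replicate 1. Between OHSS with and without nintedanib none of these 9 genes separated, beside 36.2% of all genes. The edgeR test called 0 of 9, beside 0.00526%, with 0 at an unadjusted edgeR p under 0.05, beside 7.42%. DESeq2 called none of the 8 to which it gave an adjusted p, leaving out Ifi214, beside 1.17% of all genes. Ifi206, Ifi208, Ifi213 and Ifi214 passed the filter only through libraries of these groups, so nothing is read from these counts. In OHSS with nintedanib against COH edgeR and limma voom called 0 of 9 (edgeR called 0.0263% of all genes). DESeq2 called 4 (Ifi206, Ifi208, Ifi211 and Ifi203-ps), beside 2.36% of all genes. At an unadjusted edgeR p under 0.05 were 5 of 9, beside 9.70% of all genes. Both counts hold genes that passed the filter only through libraries outside COH, so nothing is read from them.

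**Figure D4:**
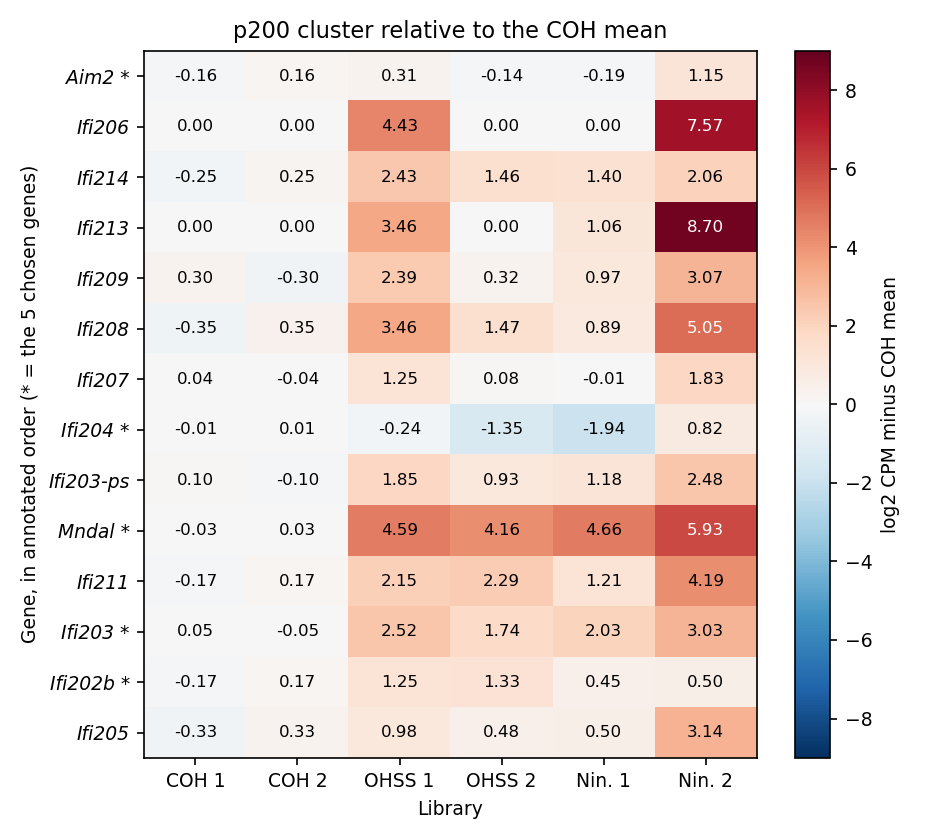
Heat map of the 14 p200 genes in gene order along the chromosome (y axis) in the 6 libraries (x axis), coloured by the log2 level relative to the mean of the COH libraries. Numbers in the cells are the plotted values, computed with a small prior count, on which those of Ifi206 and Ifi213 depend, since both had 0 counts in COH. Nintedanib replicate 2 is the highest library for 12 of 14 genes, beside 22.0% of all genes, the exceptions being Ifi214 and Ifi202b. The 12 include Ifi206, Ifi208 and Ifi213, which passed the filter on low counts only through libraries outside COH, so the count is a description only.

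Genes beside the cluster were also measured. Cadm3, a cell adhesion molecule, had 1.77 and 3.29 CPM in COH, 1.25 and 0.990 CPM in OHSS, and 4.37 and 8.60 CPM with nintedanib, with COH above OHSS. Ackr1, a chemokine receptor of venules and red cells, lay at 0.169 to 0.717 CPM. Fcer1a and the olfactory receptors Olfr433 and Olfr432 did not pass the filter on low counts.

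Interferon-stimulated genes, among them Oasl2, Mx2 and Rsad2, were set beside the members. In OHSS against COH the mean of 31 of 31 was higher, with a median log2 fold change of 2.59, which was 1.09 without OHSS replicate 1. The edgeR test and limma voom called 0 of 31. DESeq2 called 16 of 31, beside 1.89% of all genes, and 20 of 31 had an unadjusted edgeR p under 0.05, beside 8.82%. In OHSS with nintedanib against COH the numbers were 23 of 31, beside 2.36%, for DESeq2 and 29 of 31, beside 9.70%, at an unadjusted edgeR p under 0.05, with 0 called by edgeR and voom. Between OHSS with and without nintedanib the median was 0.85, which was -0.26 without nintedanib replicate 2, 1.45 without nintedanib replicate 1, 2.25 without OHSS replicate 1 and 0.17 without OHSS replicate 2, and edgeR, DESeq2 and limma voom called 0 of 31.

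These genes ordered the 4 OHSS libraries with and without the drug in nearly 1 way. Nintedanib replicate 2 was the highest library for 31 of 31, beside 22.0% of all genes. The full order of nintedanib replicate 2, OHSS replicate 1, nintedanib replicate 1 and OHSS replicate 2 held for 29 of the 31, for 1 of the 5 members (Ifi203), for 4 of the 9 other p200 genes and for 5.82% of all genes. This is the order of the summed levels of the same 31 genes, so their own count is a description only. The 4 other p200 genes include Ifi213, which passed the filter only through libraries outside COH. It had 2 counts in nintedanib replicate 1 and 0 in OHSS replicate 2. They also include Ifi205, at 1.94 and 1.91 CPM in these libraries, so nothing is read from the count of 4. Ifi202b did not follow the order, and its libraries lay close together within each group. Relative to the COH mean the interferon-stimulated genes had a median of 3.09 and 1.10 in OHSS replicates 1 and 2 on the log2 scale, while Ifi202b was at 77.7 and 81.9 CPM.

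**Figure D5:**
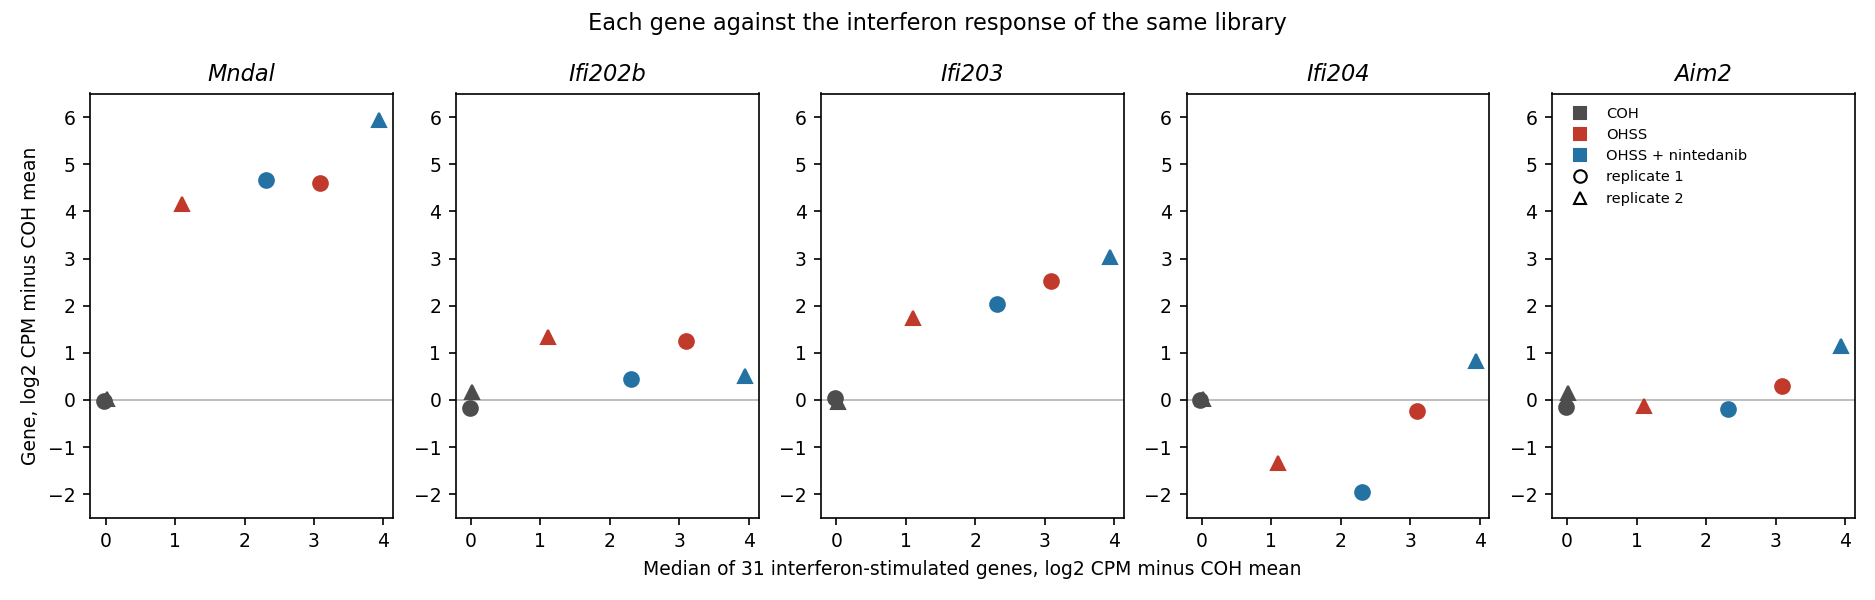
Level of each p200 gene (y axis, log2 above the mean of the COH libraries) against the median of 31 interferon-stimulated genes on the same scale (x axis), 1 point per library. The COH libraries lie near the origin on the x axis (-0.02 and 0.02), and the other libraries spread from 1.10 in OHSS replicate 2 to 3.94 in nintedanib replicate 2, and Ifi202b stays nearly level within each group.

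The interferons themselves gave few reads. Of 15 interferon and receptor genes with a row, 6 passed the filter, and Ifnb1, Ifna1, Ifna2, Ifna4, Ifnk and Ifng had 0 counts in all 6 libraries. Of the guanylate binding proteins and related GTPases, 10 of 16 had an unadjusted edgeR p under 0.05 in OHSS against COH, with a median log2 fold change of 2.18, while edgeR and limma voom called 0 and DESeq2 5. Over all genes these shares were 8.82% for the unadjusted p and 1.89% for DESeq2. Among 14 signal and regulator genes the median was 0.47. Irf1, a transcription factor of the interferon response, measured 19.4 and 17.5 CPM in COH, 43.7 and 44.7 CPM in OHSS, and 37.5 and 57.3 CPM with nintedanib, with no overlap between OHSS and COH.

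Lists of cytosolic DNA sensing, mostly other sensors and their regulators, and of inflammasome genes were also followed. Over 22 genes of cytosolic DNA sensing the median log2 fold change was 0.12 in OHSS against COH and 0.11 between OHSS with and without nintedanib, and over 19 tested inflammasome genes it was 0.46 and -0.16. The edgeR test and limma voom called 0 genes of either list in either comparison, and DESeq2 called 0. At an unadjusted p under 0.05, 2 DNA sensing genes were higher and 1 lower in OHSS against COH, as was 1 inflammasome gene higher, and with nintedanib 2 inflammasome genes were lower than in OHSS. With 8.82 and 7.42% of all genes past that threshold in these comparisons, nothing is read from these counts about the lists. The adaptor Pycard lay at 6.63 to 9.19 CPM and Casp1 at 3.43 to 7.60 CPM, and OHSS and COH overlapped for Pycard and not for Casp1. The DNA sensor Zbp1, itself induced by interferon, went from 0.956 and 1.12 CPM in COH to 28.6 and 2.44 CPM in OHSS and 14.6 and 54.2 CPM with nintedanib.

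Markers of cells in which p200 genes are often found were summed beside these results. Macrophage and monocyte markers, with 14 of 14 detected, summed to 628 and 675 CPM in COH, 744 and 492 CPM in OHSS, and 464 and 432 CPM with nintedanib, with the lowest sum in nintedanib replicate 2. That sum leans on Lyz2, at 239.5 and 262.1 CPM in COH and 50.7 CPM in nintedanib replicate 2. By the median of the 14 markers relative to COH, OHSS replicate 2 was lowest (-0.18 on the log2 scale, against -0.16 in nintedanib replicate 2). Single markers differed in direction, and Fcgr1 was higher in nintedanib replicate 2 (17.8 CPM) than in COH (4.44 and 4.48 CPM). By group means 10 of the 14 were lower and 4 higher with nintedanib than in COH. In OHSS without the drug 3 were lower and 11 higher than in COH. Dendritic cell markers summed to 272 and 252 CPM in COH, 597 and 225 CPM in OHSS, and 478 and 813 CPM with nintedanib. These sums lean on Bst2, itself an interferon-stimulated gene, at 173 to 757 CPM. The median of the 8 markers relative to COH was -0.10 and -0.25 in OHSS and -0.73 and -0.44 with nintedanib, against 0.08 and -0.08 in COH. Against COH, 6 of the 8 were lower and 2 higher in OHSS, with and without nintedanib. Lymphocyte markers summed to 12.8 to 17.0 CPM, neutrophil markers to 4.99 to 12.6 CPM and endothelial markers to 572 to 737 CPM, and no marker of these lists was at 0 in all libraries. Granulosa, theca and luteal markers, which define the ovary, summed to 22375 to 28537 CPM, with the lowest sum in nintedanib replicate 2. Their median relative to COH did not follow that sum. It was 0.24 on the log2 scale in nintedanib replicate 2, against 0.01 and -0.01 in COH. The part of cell makeup in the p200 levels was not tested.

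The genes whose levels ran most like a member over the 6 libraries were listed as a description among 13449 genes. Candidates had a mean of at least 1 CPM and no predicted, clone or pseudogene name, so Ifi214 and Ifi203-ps could not appear. None of the 8 closest to Mndal or to Ifi202b was another p200 gene. With Ifi202b these were Insig1 (Pearson r = 0.998 on log2 CPM, n = 6), Pgr (0.995), Nucb2, Msmo1, Capn7, Zfp677, Dxo and Atp8b4 (0.981). Insig1, which restrains cholesterol synthesis, measured 82.9 and 97.7 CPM in COH, 193.9 and 203.6 CPM in OHSS, and 124.1 and 121.1 CPM with nintedanib. Pgr, the progesterone receptor, measured 3.04 and 4.10 CPM in COH, 15.9 and 14.2 CPM in OHSS, and 5.76 and 6.17 CPM with nintedanib. Like Ifi202b, both were highest in OHSS, lowest in COH and between them with nintedanib.

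With Mndal these were Ufl1 (Pearson r = 0.996 on log2 CPM, n = 6), Larp4, Ero1l, Tpr, Map4k5, Zfp91, Ccng1 and Aspn (0.990). The correlation compares shape and not size. Ufl1, an enzyme that attaches the ubiquitin-like protein UFM1, measured 34.7 and 34.6 CPM in COH, 42.4 and 41.5 CPM in OHSS, and 41.7 and 43.8 CPM with nintedanib, a far smaller range than that of Mndal. The 6 libraries share their groups, and many genes differ between COH and the other groups.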

How the data were processed

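Whole-number counts per gene were used as deposited by the authors, in the unit given per the file headers. The build mm8 and the tools StringTie 1.3.3b, HISAT2 2.1.0 and Trimmomatic 0.36 are listed, without roles, per the submitters' processing notes. The gene IDs match GENCODE M21, which is on GRCm38, for 51633 of 51826, so no coordinates were taken for the table. Which program counted, whether strand was used and how reads with several places were handled is not given in the sources used here. Counts came to 144.2 to 148% of read pairs, so a pair appears to be counted as 2.

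Genes were filtered with filterByExpr and scaled with TMM in edgeR 4.0.16 (R 4.3.3). The two-sided quasi-likelihood test ran in 1 fit of the 3 groups, with Benjamini-Hochberg adjustment over the 19027 genes tested and calls below 0.05. It was also run on simulated counts with the same spread set for every gene, which does not show how it behaves at the spread of these libraries. DESeq2 1.42.0 and limma 3.58.1 (voom), other scalings and filters, a replicate block and each library left out were alternatives. CPM are scaled counts computed here from the deposited counts, and CPM per kb divides by the summed exon length. Exact permutation tests of 2 libraries against 2 are too small for calls and were not run. Named genes are the 5 members, the other p200 genes, up to 4 genes per list with the smallest p in each of 2 comparisons, 3 neighbours on each side and the 8 most like Mndal and Ifi202b, not all of which are described, and the results of 2 of these genes are not reported here. The interferons at 0, Casp1 and Bst2 were chosen after their values were seen. The members and the lists were chosen with earlier results of these data known.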

Additional observations from a re-analysis of the deposited data

How the results depend on the processing

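With 2 libraries a group, counts of calls depended on the tool. Against 2 genes called in OHSS against COH, 1 in nintedanib against OHSS and 5 in nintedanib against COH, DESeq2 called 360, 223 and 449, limma voom 0, 1 and 2, a fit of only the 2 groups compared 0, 0 and 2, and no filter on low counts 4 and 2 in the first and the second. Leaving out each library gave 0 to 2, 0 to 30 and 0 to 53, the highest of the last 2 without nintedanib replicate 1. Of the members in nintedanib against OHSS DESeq2 called 1 and each library left out gave 0 to 0, against 0. Over the other lists, with calls added over the 3 comparisons, DESeq2 gave 85 against 0. A gene called in several comparisons counts each time in that sum, so it is not a number of distinct genes. Over all genes DESeq2 called 1.89% in OHSS against COH, 1.17% in nintedanib against OHSS and 2.36% in nintedanib against COH. The replicate numbers did not pair the samples (correlations of deviations -0.000723, 0.0484 and -0.00226), and the replicate block gave 1, 0 and 2 calls and 0 members.

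Log2 fold changes that turned were those of Ifi204 in nintedanib against COH (-0.000995 with no filter, -0.54 with voom, -0.17 with the replicate block and -1.94 without nintedanib replicate 2), Aim2 in OHSS against COH (-0.06 without COH replicate 1, -0.13 when OHSS replicate 1 was left out) and, without nintedanib replicate 2, Aim2 in nintedanib against COH (-0.20) and Ifi203 (-0.15), Ifi204 (-1.25), Aim2 (-0.30) and the median of interferon-stimulated genes (-0.26) in nintedanib against OHSS. With each library left out in turn, the highest values of these were 0.81 for Ifi204 and 1.15 for Aim2 in nintedanib against COH, 0.29 for Aim2 in OHSS against COH, and 0.86 for Ifi203, 1.5 for Ifi204, 1.06 for Aim2 and 2.25 for the median in nintedanib against OHSS. The causes were not tested. Adjusted p in nintedanib against OHSS ranged from 0.00124 to 0.740 for Ifi202b and from 0.152 to 0.925 for Mndal. Scaling moved the median of all genes by at most 0.0716.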
